A study of Mus musculus with 4 samples.

Results

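The complement set held 9 mouse genes, chosen by their symbols and not by their values, of the 55450 genes counted. They are the 3 chains of C1q (C1qa, C1qb, C1qc), the components C2, C4b and C3, the receptors C3ar1 and C5ar1, and the inhibitor gene Serping1. Each symbol stood once in the gene list of every library. Their transcripts were followed in 4 libraries of single cells, all labelled as wild type (WT). One pair came from intestine, with untreated mice in the first library and NPs given for 1 week in the other. The other pair came from brain, with untreated mice and NPs given for 2 months. The labels spell out neither NPs nor their dose and route. They name BALB/c mice of 5 weeks and ICR mice of 6 months without saying which strain gave which tissue, and they give no number of animals. The sample labels say intestine where the series text says colon. Each group was 1 library, so no difference below has a replicate check or a test, and the treatment, the animals and the library cannot be told apart.

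Complement is a chain of plasma proteins that marks surfaces for uptake. In the classical pathway C1q binds antibody or a damaged surface, its partner proteases cut C4 and C2, and the resulting enzyme cuts C3, whose large fragment sticks to the surface. The small fragments of C3 and C5 are anaphylatoxins, which signal through the receptors C3aR and C5aR1 on myeloid cells. Serping1 encodes the C1 inhibitor, which blocks the C1 proteases. The liver supplies most plasma complement, while macrophages and microglia are a main source of C1q in tissues. In brain, C1q and C3 tag synapses that microglia then remove.

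The 3 C1q genes lie side by side on the minus strand of chromosome 4 (GRCm38), with C1qb at 136880129 to 136886187, C1qc at 136889804 to 136893065 and C1qa at 136895917 to 136898803. C4b (34728380 to 34743882), C2 (34862604 to 34898265) and C3 (57203970 to 57228136) are on chromosome 17. C3ar1 is on chromosome 6 (122847138 to 122856161), C5ar1 on chromosome 7 (16246743 to 16259540) and Serping1 on chromosome 2 (84765387 to 84775444). All 9 are on the minus strand. C4a is a near-identical copy of C4b, and the annotated gene Gm20547 overlaps C2 and its neighbour Cfb on the same strand, so reads of C2 and C4b are uncertain by as much as the counting split them.

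Promoter windows were read from RefSeq (GRCm38.p6) as the 250 bases before the gene start, and 5 of the 9 genes had one. Those of 4 genes that were highest in macrophages, microglia or neutrophils are shown, 5′ to 3′ on the gene's strand. The windows of C1qc, C3ar1 and C5ar1 overlap the annotated genes given above, which start farther upstream than RefSeq has them. Capitals mark the letters of any of 8 motifs searched on both strands.

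C1qb, chr4:136886201-136886450: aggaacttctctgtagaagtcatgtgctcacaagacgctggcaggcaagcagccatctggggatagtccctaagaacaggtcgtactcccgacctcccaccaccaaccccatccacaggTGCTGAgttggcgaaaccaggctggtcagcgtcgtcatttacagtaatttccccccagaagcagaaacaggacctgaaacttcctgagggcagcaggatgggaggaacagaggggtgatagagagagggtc
C1qc, chr4:136892915-136893164: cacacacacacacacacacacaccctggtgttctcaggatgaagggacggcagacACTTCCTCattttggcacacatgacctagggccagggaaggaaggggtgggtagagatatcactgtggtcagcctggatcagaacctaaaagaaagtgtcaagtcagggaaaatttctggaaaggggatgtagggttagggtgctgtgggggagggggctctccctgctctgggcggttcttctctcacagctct
C3ar1, chr6:122856158-122856407: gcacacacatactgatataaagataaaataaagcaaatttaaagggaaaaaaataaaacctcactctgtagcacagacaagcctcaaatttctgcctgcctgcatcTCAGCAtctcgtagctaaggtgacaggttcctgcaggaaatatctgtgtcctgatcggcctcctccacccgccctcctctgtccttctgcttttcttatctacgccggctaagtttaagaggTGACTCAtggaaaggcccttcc
C5ar1, chr7:16259339-16259588: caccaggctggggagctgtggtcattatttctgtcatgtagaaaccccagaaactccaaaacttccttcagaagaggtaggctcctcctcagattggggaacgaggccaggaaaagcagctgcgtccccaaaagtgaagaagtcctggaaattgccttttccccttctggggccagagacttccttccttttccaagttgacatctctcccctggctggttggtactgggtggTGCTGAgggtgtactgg

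The capitals in C1qb, and those at 17 to 12 bases before the start of C5ar1, are TGCTGA, the core letters of the site of MAF factors, which act in macrophages. C3ar1 holds the same letters on the other strand, at 144 to 139 bases before its start, and the AP-1 letters TGANTCA at 22 to 16. C1qc holds the PU.1 letters GAGGAAGT on the other strand, at 195 to 188 bases. The window of C3, not printed, holds TGCTGA on the other strand and the C/EBP letters TTGCNNAA. TGCTGA was thus in 4 of the 5 windows, and in 16.1% of all 32851 mouse windows of this length. The shares of all windows were 2.44% for GAGGAAGT, 6.75% for TGANTCA and 9.56% for TTGCNNAA. None of the 5 windows held the letters of an ISRE-like site (in 2.98% of all windows), the ETS and IRF composite (2.3%), an NF-kB site (1.21%) or the GAS letters TTCNNNGAA (7.02%). A match of letters does not show binding.

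The libraries held 116394801 (untreated) and 127772838 (NPs) UMIs in intestine, and 70594935 and 63889853 in brain. A UMI (unique molecular identifier) tags 1 captured transcript. After filters 16858 and 10548 intestinal and 11325 and 11944 brain cells were kept. In intestine 16.7% of untreated and 46.5% of NPs barcodes had over 20% mitochondrial UMIs and were left out, against 0.681% and 0.278% in brain. Libraries shared 35 to 104 barcodes, 0.298% to 0.605% of the smaller library. Cells were clustered by tissue with the complement genes left out of the clustering genes, and clusters were named by marker genes. Each name below stands for cells with the markers of that type (microglia-like, macrophage-like and so on). A level is the summed UMIs of a gene scaled to the total UMIs of its class (CPM, a fixed multiple of the gene's share of those UMIs), with an exact Poisson 95% interval where given. A ratio is NPs over untreated, with a conditional binomial 95% interval. All intervals cover counting error only, since each library is a single sample. A gene was measured in a class with at least 20 UMIs in the higher library and 20 cells in both, and called higher or lower beyond 1.5-fold.

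Many classes consisted of clusters that were at least 90% of 1 library. This held for 5 of 5 clusters of intestinal absorptive cells, 5 of 5 of goblet or Paneth cells, 5 of 6 of fibroblasts, 6 of 7 of macrophages or monocytes, 4 of 5 of microglia and 2 of 5 of astrocytes. Values within clusters that hold cells of both libraries are therefore given beside the results. The intestinal pair also differed in genes that vary along the gut (chosen after the clusters were seen). In absorptive cells Hoxb13, a gene of the distal end, was at 380.2 and 8.12 CPM, and Car1, a carbonic anhydrase gene of colonocytes, at 1139 and 18229 CPM. Gut region and treatment cannot be told apart in any intestinal comparison.

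Over all classes of intestine, 29 pairs of a complement gene and a class were measured. Of these 16 were higher and 8 lower in the NPs library, where 25.4% and 14.3% of all measured genes were higher and lower. The 16 include the 3 C1q chains in plasma cells. There the highest of 341 NPs cells held 43 of 48 C1qa UMIs, 22 of 26 for C1qb and 17 of 23 for C1qc. In brain, 61 pairs were measured, with 29 higher and 11 lower, against 7.47% and 10.9% of all genes. Pairs were then kept if the class reached at least 0.5 of the level in all other cells, in the library where the gene was higher. The limit, added after the data were seen, was not applied to the other library. Under it intestine had 6 higher and 7 lower of 16, where 25.2% and 11.8% of all genes under the same limit were. Brain had 0 higher and 7 lower of 18, beside 6.26% and 9.76%. Thus all 29 higher brain pairs came from classes that, in the NPs library, held the gene at under 0.5 of the level around them.

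**Figure D1:**
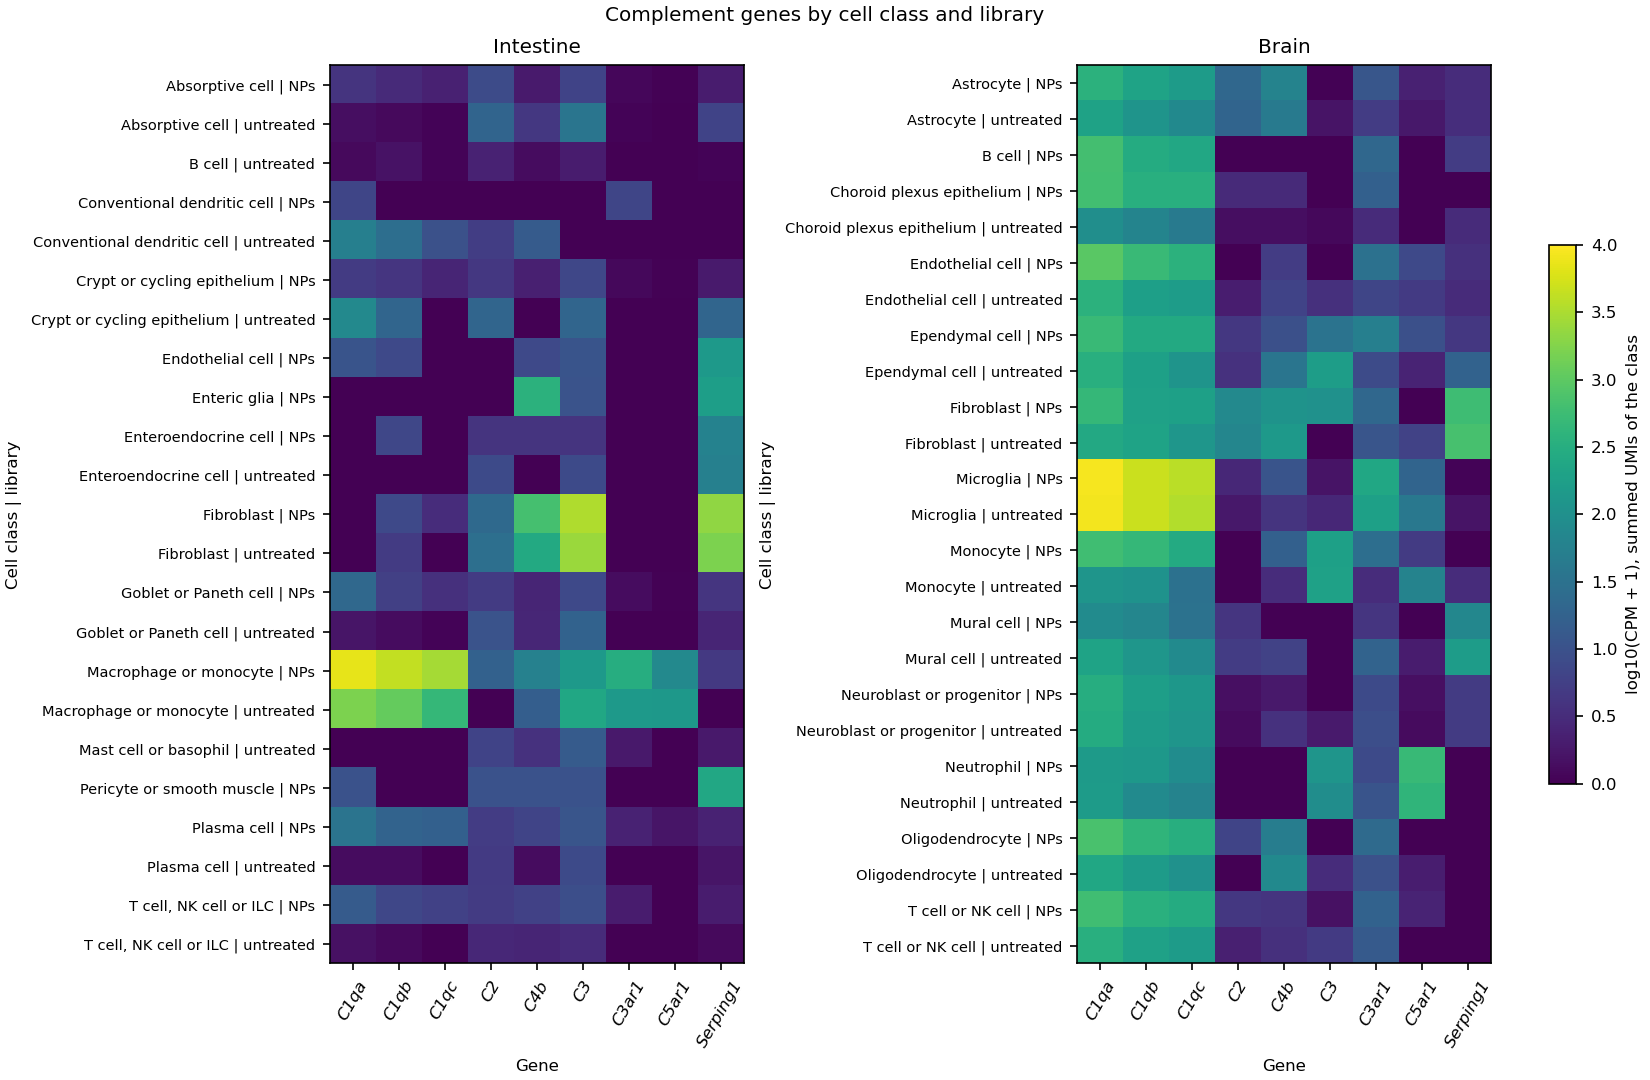
Levels of the 9 genes (columns) in each cell class and library with 20 or more cells (rows), as log10 of CPM + 1, for intestine (left) and brain (right). The C1q chains are brightest in microglia and intestinal macrophages, C3, C4b and Serping1 in intestinal fibroblasts, and C5ar1 in brain neutrophils.

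C1qa, C1qb and C1qc encode the chains that assemble into the recognition protein of the classical pathway. In brain they belonged to microglia, which held 95.04% and 95.4% of all C1qa UMIs (untreated, NPs) with 42.0% and 53.8% of all UMIs. C1qa was at 8549.9 CPM in the untreated library (5345 microglia) and 8894 CPM in the NPs library (6532 microglia), a ratio of 1.04 (1.03 to 1.05). C1qb was at 4725 and 4774 CPM, a ratio of 1.01. C1qc was at 3429 and 3792 CPM, a ratio of 1.11 (1.097 to 1.115). Each chain thus differed by at most 1.11-fold between the microglia of the libraries, and none was called. After each cell was thinned to 1000 UMIs, 99.1% and 99.4% of microglia had a C1qa UMI. The same share was 12.8% and 15.4% in astrocytes, which should lack the gene, with median depths of 4888 and 4448 UMIs against 4932 and 4702 in microglia. Unthinned, 99.5% and 99.7% of microglia had one. Across the 5 microglial clusters C1qa lay between 7687 and 9915 CPM in the untreated and between 7983 and 9359.8 CPM in the NPs library. Border-associated macrophages, the C1q-rich cells of the brain's coverings, numbered 13 and 6 and were too few to compare, with C1qa at 7063 and 6914 CPM.

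The other brain classes held much less C1q, with a like split between the chains. C1qa made up 51.2% (51.0 to 51.3) of the C1q UMIs in untreated and 50.9% (50.8 to 51.1) in NPs microglia, and 51.0% and 50.5% in astrocytes, 52.0% and 52.0% in endothelial cells and 49.2% and 48.5% in T or NK cells. Over all brain classes with 20 or more C1q UMIs, its share lay between 39.8% and 54.6%. C1qa in astrocytes was at 203 and 370 CPM, so that all 3 chains were called higher there (7.17% of genes higher, 4.89% lower). By cluster, C1qa was higher in 2 of 5, at 219 and 398 CPM in cluster 1 (ratio 1.81) and at 237 and 455 CPM in cluster 11 (ratio 1.92). Clusters 3 and 13 had ratios of 1.02 (0.832 to 1.23) and 0.928 (0.794 to 1.09). In cluster 5, with 27 untreated and 1772 NPs cells, C1qa was at 613 and 343 CPM, a ratio of 0.559 (0.456 to 0.692). In endothelial cells C1qa was at 367 and 952 CPM, a ratio of 2.59 (2.36 to 2.86), C1qb had 2.83, C1qc 2.33 and C3ar1 5.08, against 6% of genes higher and 7.95% lower. A single endothelial cluster of 17 and 21 cells held most of it, with C1qa at 3233 and 4993 CPM. All 11 microglial markers were also raised in that cluster, and their part in the endothelial ratios was not tested. Without that cluster, C1qa was at 137 and 125 CPM (ratio 0.916, 0.731 to 1.14), C1qb had a ratio of 1.02, C1qc 0.681 and C3ar1 1.48. Mural cells ran the other way, with C1qa at 211 and 83.0 CPM. How much of these levels is free RNA or cell pairs was not tested.

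In intestine the C1q genes were those of macrophages or monocytes, a class of 36 untreated and 303 NPs cells that held 76.3% and 90.2% of all C1qa UMIs. C1qa was at 1604 (1434 to 1789.7) and 7004 (6867 to 7144) CPM, a ratio of 4.37 (3.91 to 4.89). C1qb was at 1131 and 4290.3 CPM (ratio 3.79, 3.32 to 4.35) and C1qc at 463 and 2878 CPM (ratio 6.21, 5.06 to 7.71). All 3 chains were called higher in a class in which 41.0% of all genes were called higher and 11.1% lower. The untreated level was that of few cells: 11 of 36 macrophages (30.6%) had a C1qa UMI, and the highest cell held 19.6% of the UMIs. In the NPs library 263 of 303 (86.8%) had one. Thinned to 1000 UMIs the shares were 26.5% (12.9 to 44.4) and 87.4% (82.9 to 91.0), with 0.0364% and 0.66% in T cells, NK cells or ILCs (median depths 5294 and 4286, against 3139 and 2600.0 UMIs).

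The macrophage classes of the intestinal pair were made of different cells. Cluster m1, led by Il1b, Lyz2 and S100a8, held 34 of the 36 untreated but 21 of the 303 NPs cells. The summed level of 11 macrophage markers, among them Csf1r and Mrc1, was 8864 CPM with 9 of 11 detected (Cd163 and Folr2 at 0) and 40978 CPM with all 11. The 9 monocyte markers summed to 10389 and 10819 CPM, and the 9 neutrophil markers to 2770.5 and 439 CPM. Within m1, C1qa was at 1726 and 4880.0 CPM, a ratio of 2.83 (2.44 to 3.28), C1qb had 2.78 and C1qc 3.48. The 6 other clusters, with 282 NPs and 2 untreated cells, held C1qa at 4359.6 to 9409 CPM in the NPs library. So the C1q chains were higher both in the shared cluster and in the class, while the rest of the class had too few untreated cells to compare. The part that the mix of cells plays in the class ratios was not tested.

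**Figure D2:**
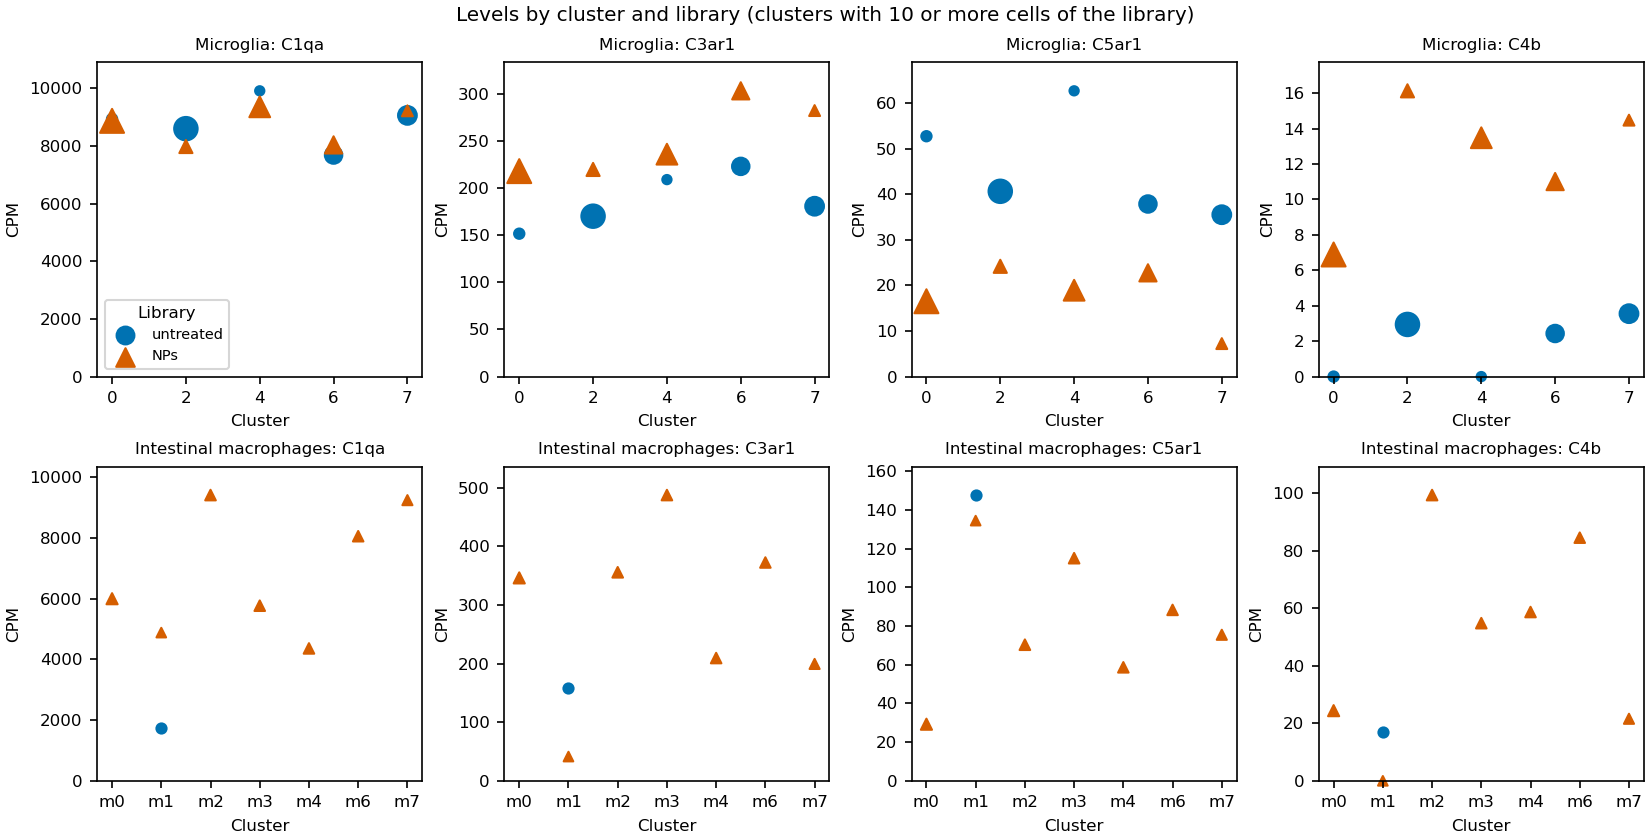
Levels (CPM) of C1qa, C3ar1, C5ar1 and C4b in each microglial (top) and intestinal macrophage (bottom) cluster, with a circle for the untreated and a triangle for the NPs library and larger marks for more cells. In all 5 microglial clusters the NPs library is higher for C3ar1 and C4b and lower for C5ar1, while cluster m1 is the only macrophage cluster shown with cells of both libraries. Microglial clusters 0 and 4 hold only 39 and 15 untreated cells, and cluster 7 only 58 NPs cells.

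C1qa also stood apart from its partners in goblet or Paneth cells of the NPs library, an observation picked after its values were seen. There C1qa made up 74.3% (71.6 to 76.9) of the C1q UMIs, against 49.4% in macrophages of the same library and 47.3% in absorptive cells. The class as a whole held 787 C1qa, 177 C1qb and 95 C1qc UMIs. In 47 cells C1qa had at least 3 UMIs with none of C1qb or C1qc, and no such cell was seen among the 303 macrophages or the 1604 untreated goblet or Paneth cells. They were 47 of the 53 cells of the NPs class with at least 3 C1qa UMIs. Such cells were not limited to this class: among brain astrocytes they were 34 of 163 (untreated) and 45 of 246 (NPs). Of the 47 cells, 46 lay in 1 cluster of 1558 NPs cells and had at least 5 UMIs of Reg4, a gene of deep crypt secretory cells. The 797 NPs goblet or Paneth cells at that Reg4 level held C1qa at 38.2 CPM (35.2 to 41.5), with C1qb at 3.71 and C1qc at 2.09 CPM. The 3226 cells under it held 9.29, 5.57 and 2.93 CPM. The 716 untreated cells at that Reg4 level held C1qa at 0.743 CPM, or 7 UMIs. After thinning, 2.52% (1.55 to 3.87) of the NPs and 0.154% (0.0039 to 0.855) of the untreated cells at that Reg4 level had a C1qa UMI, with median depths of 18043 and 4022 UMIs (15.3% and 0.698% unthinned). Among the NPs cells under that Reg4 level the thinned share was 1.47% (1.05 to 2.00), and its interval overlaps the 1.55% to 3.87% of the cells above it. The 46 cells held 443 of the 587 C1qa UMIs of their group. In the 47 cells Reg4 was at 22604 CPM (923 in the other goblet or Paneth cells), Spink4 at 76105 (8326) and Hsd11b2 at 1003 CPM (171). The macrophage genes Csf1r and Tyrobp were each at 0.788 CPM and Adgre1 at 0. The cluster of the 46 cells also held 13 untreated cells, with 0 C1qa UMIs in 277469 UMIs, beside 671 in 29163687 for its NPs cells. Since few NPs cells held most of the C1qa UMIs, an interval over UMIs is too narrow here, and 13 untreated cells are too few to compare.

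**Figure D3:**
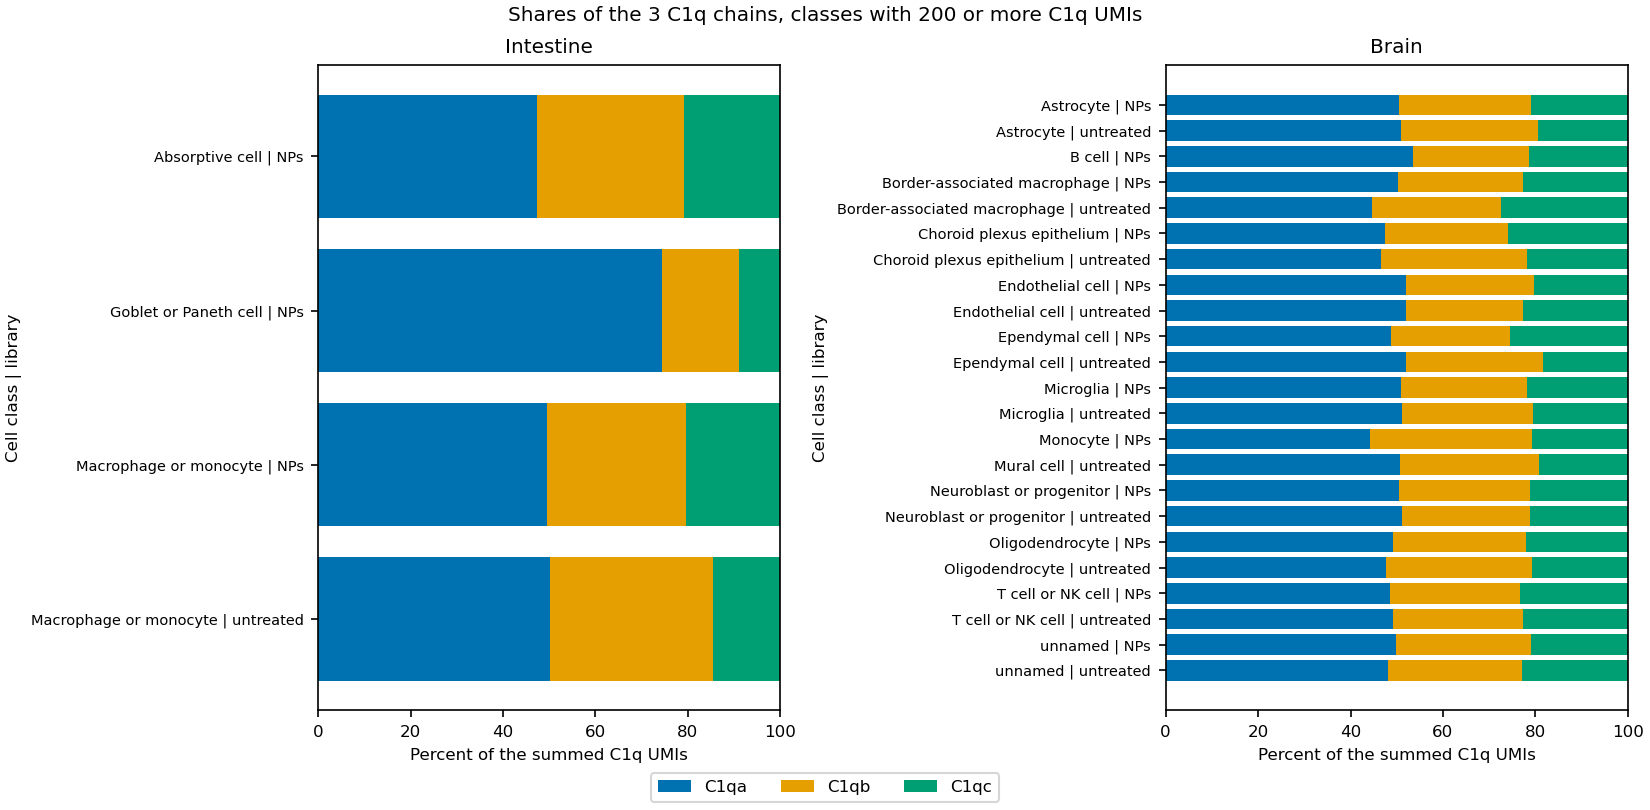
Shares of C1qa, C1qb and C1qc in the summed C1q UMIs (percent) of each class and library with 200 or more C1q UMIs, for intestine (left) and brain (right). C1qa takes 44.3% to 53.6% in every bar but that of NPs goblet or Paneth cells, where it takes 74.3%.

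**Figure D4:**
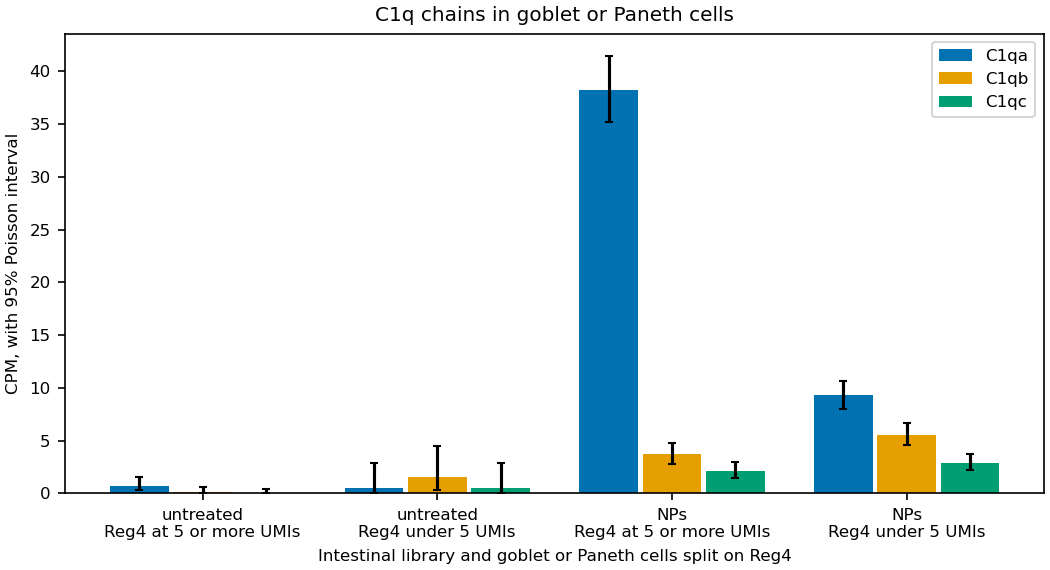
Levels (CPM) of the 3 C1q chains in intestinal goblet or Paneth cells, split by library and by 5 UMIs of Reg4, with exact Poisson 95% intervals for counting error. The C1qa bar of NPs cells with 5 or more Reg4 UMIs reaches 38.2 CPM, and its partners stay under 4 CPM.

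C4b encodes C4, the first substrate of the C1 proteases. In brain it was chiefly an astrocyte transcript, with 74.9% and 73.1% of its UMIs in astrocytes. Its astrocyte level was 42.6 (39.9 to 45.4) and 59.7 (56.3 to 63.3) CPM, a ratio of 1.40 (1.28 to 1.53) that was not called. In the astrocyte cluster with most cells of both libraries (1663 and 1801) it was at 64.2 and 81.0 CPM, a ratio of 1.26 (1.12 to 1.43). Brain fibroblasts held 144 and 111 CPM (ratio 0.768, 0.388 to 1.47) and oligodendrocytes 77.6 and 48.4 CPM (70 and 17 UMIs, ratio 0.624, 0.344 to 1.07). The oligodendrocyte value was called lower, with 13.9% of genes lower and 9.55% higher, and its interval spans 1.

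Microglia held little C4b, 2.98 CPM (84 UMIs) in the untreated and 10.0 CPM (332 UMIs) in the NPs library, so that the ratio was 3.36 (2.63 to 4.32). The ratio was 1.79 with cells thinned and 9.32 without the 1% of cells with most C4b UMIs. That cut took 78.6% of the untreated but 40.7% of the NPs C4b UMIs, so the 9.32 depends on it. C4b and C2 were the 2 of the 8 measured complement genes of microglia called higher, beside 2 lower, where 4.52% and 8.66% of all genes were. C4b was higher in the NPs cells of all 5 clusters, though the untreated library had only 39 and 15 cells, with no C4b UMI, in clusters 0 and 4. In cluster 6, with 841 and 790 cells, it was at 2.43 and 11.01 CPM (ratio 4.53, 2.50 to 8.78). All other cells of those libraries held C4b at 30.0 and 43.9 CPM, above the microglial level. Microglia with a C4b UMI were 1.33% and 4.01% of the class. In the NPs library the 9 astrocyte markers summed to 544 CPM in those cells and 635 CPM in the other microglia, and in the untreated library to 669 and 672 CPM. The 16 interferon response genes of a companion list summed to 978 CPM in untreated and 1908 CPM in NPs microglia with a C4b UMI, and to 367 and 464 CPM in those with none. Over the class 10 of those 16 genes were called higher and 0 lower (4.52% and 8.66% of all genes), and over astrocytes 14 and 0 (7.17% and 4.89% of all genes). The part of the other cells' RNA and of the interferon response genes in the C4b level was not tested. An unnamed cluster led by H2-Aa, Cd74 and Mrc1, of 37 and 27 cells, held C4b at 12.7 (3 UMIs) and 141 CPM (28 UMIs).

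In intestine C4b was highest in fibroblasts, at 272 (211 to 345) and 663 (611 to 719) CPM, a ratio of 2.44 (1.89 to 3.18). It was the only 1 of 3 measured complement genes called higher in fibroblasts, with 38.0% of all genes called higher and 8.21% lower. Without 2 untreated cells that held all 46 Cr2 UMIs of the class the ratio was 2.54. In the cluster of 6 untreated and 89 NPs fibroblasts C4b was at 471 and 1010.2 CPM (ratio 2.14, 1.36 to 3.59). Of the 45 untreated fibroblasts 33 lay in another cluster, with 1 NPs cell. Enteric glia, 34 cells of the NPs library alone, held C4b at 375 CPM (267 to 513). In macrophages C4b was at 14.9 (3 UMIs) and 56.0 CPM (79 UMIs), a ratio of 3.75 with an interval of 1.24 to 18.5, and in m1 at 17.0 and 0 CPM. The class ratio was 1.47, under the call, with cells thinned and 12.1 at resolution 2 of the clustering. In absorptive cells C4b was at 3.38 and 0.924 CPM, a ratio of 0.273 (0.192 to 0.381). The ratio was 0.0796 without the 1% of cells with most C4b UMIs, a cut that took 43.0% (untreated) and 83.3% (NPs) of them.

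C3 encodes the component on which all complement pathways meet. Intestinal fibroblasts held most of it per UMI, at 2470.4 (2279 to 2673) and 3315 (3196 to 3437) CPM, a ratio of 1.34 (1.23 to 1.47) that was not called. Over all genes measured in fibroblasts the median log2 ratio was 0.39. Relative to that median, C3 had a ratio of 1.02. Among the clusters with 10 or more NPs cells, C3 in that library ran from 87.1 CPM in a cluster of 16 cells to 4620.4 CPM in the cluster of 89 cells, so these clusters differed more among themselves than the class did between libraries. In that last cluster, with 6 untreated cells, the ratio was 1.65 (1.36 to 2.01). By number of transcripts, absorptive cells held 68.9% of the untreated C3 UMIs and fibroblasts 18.4%, while in the NPs library absorptive cells held 6.56% and fibroblasts 77.7%. In such shares, fewer cells of a class and less RNA per cell cannot be told apart.

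C3 in absorptive cells was at 34.3 (32.9 to 35.7) CPM untreated and at 5.48 CPM with NPs, a ratio of 0.160 (0.140 to 0.182). In goblet or Paneth cells it was at 17.1 and 6.53 CPM, a ratio of 0.382 (0.315 to 0.464). In absorptive cells C2, C4b, C3 and Serping1 were all called lower and the 3 C1q chains, each under 3 CPM, higher, with 22.1% of all genes lower and 23.4% higher. In goblet or Paneth cells 2 of 6 were lower and 4 higher, with 11.4% and 28.0% of all genes. The goblet value of C3 depended on how cells were weighted: the ratio of the mean CPM over cells was 1.17. In intestinal macrophages C3 was at 244 and 139 CPM (ratio 0.569, 0.414 to 0.795), and in cluster m1 at 273 and 321 CPM (ratio 1.18, 0.724 to 1.89).

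In brain C3 had 620 and 175 UMIs in all. Ependymal cells, which line the ventricles, held 70.0% of them in the untreated library (434 of 620). There C3 was at 168 (152 to 184) and 32.8 CPM in 281 and 50 cells, a ratio of 0.196 (0.117 to 0.309), which was 0.317 thinned and 0.110 as a mean over cells. C4b was at 34.4 and 8.64 CPM in the same cells (89 and 5 UMIs), and Serping1 at 17.4 and 3.46 CPM (45 and 2 UMIs). Thinned, each of these genes had no UMI left in 1 library, so the ratio was set to 1 and is no measured value. C3, C4b and Serping1 were called lower and C1qa, C1qc and C3ar1 higher, in a class with 18.1% of genes lower and 5.43% higher. Of the 50 NPs cells, the highest for each gene held 98 of 294 C1qa, 47 of 154 C1qc and 15 of 30 C3ar1 UMIs. All ependymal cells of both libraries lay in 1 cluster. The 7 ependymal markers summed to 7249 and 6395 CPM there, the 7 choroid plexus markers to 1910.4 and 482 CPM, and the 9 neutrophil markers to 34.0 and 1545 CPM. Their part in the ratios was not tested. Monocytes held C3 at 193 and 187 CPM (ratio 0.966, 0.664 to 1.39) and neutrophils at 90.1 and 120.1 CPM (1.33, 0.767 to 2.42), so that those myeloid classes did not differ beyond counting error. Microglia held 1.78 and 0.603 CPM, far below either.

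C2 encodes the protease that joins C4 in the C3-cutting enzyme. In brain astrocytes held 87.0% and 81.0% of its UMIs, at 18.5 (16.8 to 20.4) and 20.7 (18.7 to 22.8) CPM, a ratio of 1.12 (0.970 to 1.28). In their shared cluster it was at 26.3 and 27.0 CPM. Brain fibroblasts had more per UMI, 66.8 and 76.0 CPM, but in only 27 and 21 cells. Microglia held only 22 and 60 C2 UMIs, with a ratio of 2.32 (2.00 to 5.28 over the alternatives). It was called higher, in a class with 4.52% of genes higher and 8.66% lower. In intestine absorptive cells held 85.0% and 53.9% of the C2 UMIs, at 18.7 (17.7 to 19.8) and 7.06 (6.31 to 7.88) CPM, a ratio of 0.378 (0.333 to 0.427), or 0.238 with doublets kept. Goblet or Paneth cells held 9.51 and 3.96 CPM, a ratio of 0.416 (0.322 to 0.539). Both epithelial classes were thus lower in the NPs library, in clusters that were each at least 90% of 1 library. Macrophages had 0 and 23 C2 UMIs, which at the limit of 3 counts is no call.

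**Figure D5:**
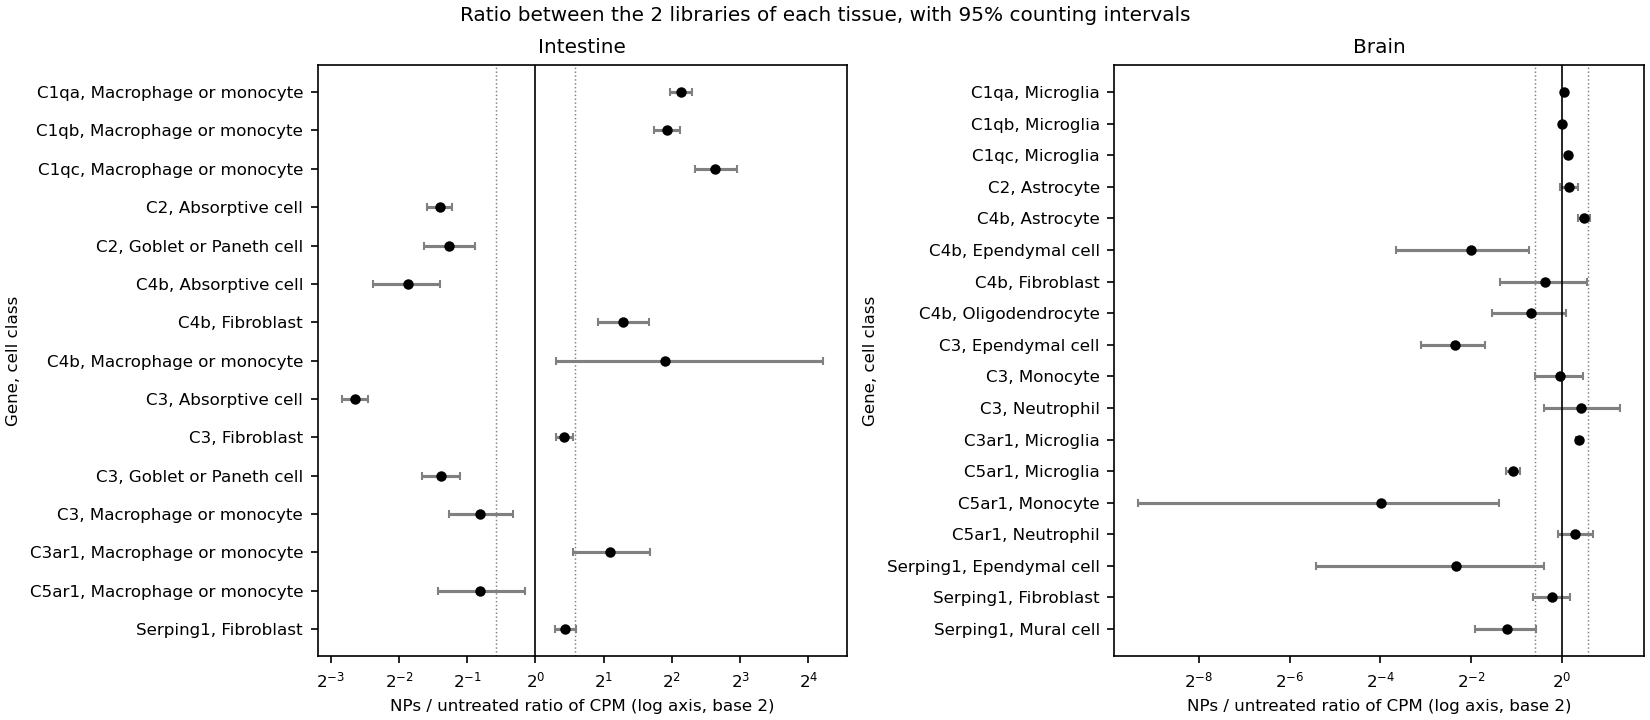
Ratio of CPM, NPs over untreated, on a log axis to base 2, for the 9 genes, with conditional binomial 95% counting intervals. A gene is shown in classes that reached 0.5 of the level of all other cells in the library where the gene was higher. Dotted lines mark 1.5-fold, and the pair of C2 in macrophages, at 0 untreated UMIs, is not drawn. C1q in macrophages stands farthest to the right, and C5ar1 in monocytes farthest to the left with the widest interval (27 and 1 UMIs).

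C3ar1 encodes the receptor for the C3a fragment. Microglia held 93.6% and 94.6% of its brain UMIs, at 184 (179 to 189) and 238 (233 to 244) CPM, a ratio of 1.30 (1.251 to 1.343) that was not called. The NPs library was higher in each of the 5 microglial clusters, of which clusters 0 and 4 had only 39 and 15 untreated cells and cluster 7 only 58 NPs cells. In cluster 6 C3ar1 was at 223 and 303 CPM (ratio 1.36, 1.26 to 1.46). After thinning, 16.2% and 19.6% of microglia had a C3ar1 UMI, against 0.302% and 0.813% of astrocytes. In intestine macrophages held 72.5% and 93.5% of its UMIs, at 145 (96.8 to 208) and 308 (279 to 338) CPM, a ratio of 2.13 (1.46 to 3.22). It was 9.57 with cells thinned and 1.58 relative to the median over all genes. Within cluster m1 the order turned, with 159 CPM (28 UMIs) and 41.4 CPM (4 UMIs), a ratio of 0.260 (0.0663 to 0.744). The other NPs clusters held 199 to 487 CPM, so the class ratio of C3ar1 is that of clusters with almost no untreated cells.

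C5ar1 encodes the main receptor for C5a. Brain neutrophils had its highest level, 410.4 (326 to 509) and 504 (439 to 575) CPM, a ratio of 1.23 (0.948 to 1.60). Microglia held 84.6% and 67.3% of the brain UMIs, at 38.8 (36.5 to 41.1) and 18.4 (17.0 to 19.9) CPM, a ratio of 0.474 (0.429 to 0.524). The NPs library was lower in all 5 clusters, though clusters 0 and 4 had few untreated cells (39 and 15) and cluster 7 few NPs cells (58). Cluster 6, well filled in both libraries, had 37.9 and 22.8 CPM (ratio 0.601, 0.478 to 0.754). C5ar2, which encodes the second receptor of C5a, was at 29.1 and 4.01 CPM in microglia, a ratio of 0.138 (0.114 to 0.166), and at 23.6 and 2.80 CPM in cluster 6. Microglia of the NPs library thus held less of both C5a receptors and not less of C3ar1. Monocytes had 61.5 CPM (27 UMIs) and 3.90 CPM (1 UMI) of C5ar1 in 54 and 32 cells, a ratio of 0.0634 (0.00155 to 0.385). In that class 20.5% of genes were lower and 9.36% higher. Thinned, 1 library had no C5ar1 UMI left there, so the ratio was set to 1 and is no measured value. Intestinal macrophages held 96.4% and 94.7% of the C5ar1 UMIs of their libraries, at 135 (88.7 to 196) and 76.5 (62.8 to 92.4) CPM, a ratio of 0.569 (0.370 to 0.903). It was 0.245 with cells thinned and 0.757, which is not called, at resolution 2. In m1 C5ar1 was at 148 and 134 CPM (ratio 0.911, 0.430 to 1.84). C3ar1 and C5ar1 were at 0 UMIs in intestinal fibroblasts of both libraries.

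By level, Serping1 was highest in fibroblasts in both tissues. By number of transcripts, untreated intestinal fibroblasts held 406 Serping1 UMIs and absorptive cells 360, against 1959 and 45 in the NPs library. Intestinal fibroblasts held 1626 (1471 to 1792) and 2202 (2106 to 2302) CPM, a ratio of 1.35 (1.22 to 1.51), which was not called and was 1.03 relative to the median over all genes. The fibroblast clusters with 10 or more NPs cells lay between 1633 and 2574 CPM in that library, closer to each other than for C3. In the NPs library pericytes or smooth muscle cells held 251 CPM, enteric glia 173 and endothelial cells 145 CPM, and no untreated cell fell in these 3 classes. Enteroendocrine cells held 54.9 and 57.6 CPM (32 and 19 UMIs). In brain, fibroblasts held 679 (568 to 805) and 580.5 (463 to 719) CPM, a ratio of 0.855 (0.643 to 1.13). Mural cells, the pericytes and smooth muscle of vessels, held 164 (139 to 192) and 70.7 (44.8 to 106) CPM, a ratio of 0.431 (0.266 to 0.671) that was 0.109 thinned, with 16.1% of genes lower and 10.2% higher. The mural clusters differed in their shares of the libraries. In cluster s0 (108 and 52 cells) Serping1 was at 95.4 and 55.02 CPM (ratio 0.577, 0.273 to 1.14), and in s7 (60 and 9 cells) at 204 and 109 CPM (ratio 0.537, 0.260 to 1.00). The 6 pericyte markers summed to 7068 and 9079 CPM over the class and the 6 smooth muscle markers to 22805 and 15394 CPM, and their part in the ratio was not tested.

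Of 44 other genes of the pathway, most were not measured in a given class. In microglia 18 were measured, with 1 higher and 7 lower, and a median of -0.31 on the log2 scale against 0.01 over all genes measured, of which 4.52% were higher and 8.66% lower. Masp1, a lectin pathway protease, was higher there (5.86 and 10.2 CPM). Clu, the secreted inhibitor clusterin, was lower (112 and 67.2 CPM), as was Vtn (5.75 and 2.14 CPM). Itgam and Itgb2, which form complement receptor 3, were at 749.9 and 879 CPM and at 233 and 211 CPM, neither called. In astrocytes 21 were measured, with 5 higher and 6 lower (median -0.03, all genes 0.06), beside 7.17% and 4.89% of all genes. Clu was at 3744 and 3395 CPM there. In brain endothelial cells 11 were measured, with 3 higher (Cd46, Itgam, Lrp1) and 0 lower, beside 6% and 7.95% of all genes. Itgam was at 44.0 and 93.0 CPM (ratio 2.12, 1.58 to 2.85). Without the cluster in which the microglial markers were raised, a setting added after the data were seen, it turned to 18.3 and 8.15 CPM (ratio 0.445, 0.177 to 0.986). Other high levels in brain were those of Vtn in mural cells (7989 and 10856 CPM), and of Cd59a (465 and 481 CPM) and Cd93 (348 and 262 CPM) in endothelial cells.

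In intestinal macrophages 10 of the 44 were measured, with 5 higher and 2 lower (median 0.50, all genes 0.43), beside 41.0% and 11.1% of all genes. C6, a part of the membrane attack complex, had 0 and 113 UMIs (80.1 CPM). Cd93 was at 49.8 and 158 CPM and Cfp, which encodes properdin, at 59.8 and 111 CPM. Lower were Itgb2 (184 and 82.2 CPM) and Itgax (169 and 78.7 CPM), the chains of complement receptor 4. In intestinal fibroblasts 11 were measured, with 3 higher and 2 lower (median 0.09, all genes 0.39), beside 38.0% and 8.21% of all genes. The C1 proteases were C1ra (172 and 183 CPM), C1rb (64.1 and 163 CPM) and C1s1 (328 and 459 CPM). Cd55, the decay accelerating factor, was at 1121 and 966 CPM. Clu (1714 and 11.2 CPM) and Cr2 (184 and 0 CPM) were the 2 lower, and 2 untreated cells held all 46 Cr2 and 424 of 428 Clu UMIs. These cells also held 788 UMIs of Cxcl13 and 29 of Madcam1, genes of lymphoid follicle stroma. Without them Clu was at 18.3 and 11.2 CPM. In absorptive cells 20 were measured, with 3 higher and 12 lower (median -1.42, all genes 0.05), beside 23.4% and 22.1% of all genes. Among the lower were Cd55 (49.3 and 21.6 CPM), the C1 protease genes C1ra (3.09 and 0.132 CPM) and C1rb (2.80 and 0.11 CPM), and Cr2 (2.55 and 0.022 CPM). In these cells 14 of the 16 interferon response genes were also called lower and 0 higher, beside 22.1% and 23.4% of all genes.

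The genes whose level ran most like each member were taken over 51 pairs of a class and a library, by Pearson's r of log2(CPM + 10) among 9117 genes. The pairs share libraries, depth and free RNA, so r is a description. The C1q chains were nearest to each other (C1qa with C1qb 0.99, with C1qc 0.98), followed by Trem2 for C1qa (0.95) and Csf1r for C1qb (0.96). C3ar1 was nearest to Adgre1 (0.92), and C5ar1 to Osm (0.94), which encodes the cytokine oncostatin M. Serping1 was nearest to the collagen genes Col6a2 (0.93) and Col3a1 (0.93), and C4b to Thbs2 (0.86). C2 and C3 had looser neighbours, Steap3 (0.78) and Mmp23 (0.78).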

How the data were processed

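The 4 libraries were used as the raw UMI counts per gene and barcode that the authors deposited, of 10x Genomics 3' libraries counted with Cell Ranger 5.0.1 on GRCm38, per the submitters' processing notes. Cells needed 500 UMIs and 200 genes, with mitochondrial UMIs up to 20%. Scrublet marked doublets (2.94% and 2.01% in brain). Its own threshold marked 0.0354% and 0% in intestine and so had not worked, and a fixed score of 0.25 removed 0.642% and 0.93%. Each tissue was clustered with scanpy 1.11.5 and leidenalg 0.10.2 on 2000 variable genes, 30 components, 15 neighbours and resolution 1, with complement and interferon response genes left out. A cluster was named for the class with the largest share of markers raised at least 2-fold, with at least 3 of them, unless its 10 leading genes held more markers of another class. The families of classes, and the second clustering of stromal cells and of brain myeloid cells, were set after clusters were seen.

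Named were all 9 genes where they had 20 UMIs in a class of 20 cells; of the other complement genes, those at 100 CPM or more (up to 12 per tissue) and the 3 largest and 3 smallest ratios in 5 classes; and 3 genes most like each member. Not all of those are printed, and the values of 1 of the other complement genes are not reported here. The members and lists were chosen with earlier results of these data known. Against 0 UMIs a ratio was taken from 3 counts, and it was set to 1 where the other library was not beyond that limit. In simulated counts 98% of genes changed 2-fold and 2.7% of unchanged genes were called in macrophages (50 and 1073 genes), and 98% and 1.72% in microglia (50 and 14515 genes). Those counts varied by counting error alone, in genes with at least 20 expected untreated UMIs. They hold no spread between cells, animals or libraries, so they cannot give the share of wrong calls in the real pairs. In the real macrophages 41.0% of genes were called higher and 11.1% lower. Python 3.11.15, numpy 2.4.6, scipy 1.17.1, pandas 2.3.3 and matplotlib 3.10.9 were used. No paired analysis was possible, since each group had 1 library.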

Additional observations from a re-analysis of the deposited data

How the results depend on the processing

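No paired analysis was possible because each group had 1 library. Log2 ratios were recomputed over 12 alternatives for 37 gene and class values. These were the measured pairs under the limit of 0.5 of the level of other cells, and all those of microglia. Most of the 29 higher brain pairs are thus not among them. Of 417 recomputed values 397 kept their sign, and 55 moved outside the counting interval of the main value or changed the sign of a called value. Of 257 recomputed from called values, 11 came under 1.5-fold. C3 in goblet or Paneth cells turned to 0.076 on the log2 scale with cells thinned to 1000 UMIs and to 0.22 as a mean over cells. Of settings chosen after seeing the data, cluster m1 alone turned macrophage C3 to 0.23 and C3ar1 to -1.94, and leaving out the C1q-rich endothelial cluster turned C1qa to -0.13 and C1qc to -0.56. Brain pairs called higher numbered 29, 18 at 2-fold and 15 thinned. Those called lower numbered 11, 7 without the 1% of cells with most UMIs of the gene, 7 with each library clustered alone and 3 thinned. In intestine 16 pairs were higher and 7 thinned, and 8 were lower, 3 thinned and 13 with each library clustered alone. Pairs of another complement gene and a class, over both tissues, that were called higher numbered 37, and 23 at 2-fold. Those called lower numbered 48, and 29 at 50 UMIs. Pooled over classes, 25.4% of all measured genes were higher and 14.3% lower in intestine, and 7.47% and 10.9% in brain. Thinning leaves fewer UMIs, so fewer pairs are measured. The class with the highest level was the same in 28 of 36 gene and library pairs at a mitochondrial limit of 10%, the lowest count. At that limit 7, and with none 10, untreated intestinal macrophages were left, too few for a comparison, and at resolution 2 there were 62. C4b in microglia ranged from a ratio of 1.79 (thinned) to 9.32 (without the 1% of cells with most C4b UMIs). C5ar1 there ranged from 0.411 to 0.496 and C3ar1 from 1.27 to 1.32. Thinning also left 1 library without a UMI for ependymal C4b and Serping1 and for monocyte C5ar1. Their thinned ratios were set to 1 and do not show that the libraries were alike.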
